A study of Mus musculus with 6 samples.

Results

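The 8 genes described here are the mouse Nlrp4 paralogs Nlrp4a, Nlrp4b, Nlrp4c and Nlrp4e, the Nlrp9 paralogs Nlrp9a, Nlrp9b and Nlrp9c, and Nlrp14. They were chosen by symbol, and all 8 were found among the 25239 genes of the deposited count table. The table holds 6 libraries, each from a single oocyte of a CD-1 mouse in the germinal vesicle (GV) stage, that is, arrested before the first meiotic division with a visible nucleus. Per the labels' protocols, cumulus-oocyte complexes (oocytes wrapped in their follicle cells) were taken from females aged 4 to 6 weeks and injected with water (3 libraries) or with a mixture of phthalate metabolites (3 libraries), the breakdown products of common plasticizers. Both groups were then cultured in maturation medium with serum and follicle-stimulating hormone and collected at the GV stage, and no group without injection is part of the data. The question put by this design is what the mixture does to the transcripts of the oocyte. The dose and the components of the mixture are not given in the labels, which also name no animal or culture behind an oocyte. Each group was therefore treated as 1 sample, and no p-value is given. SDs and their n describe the spread between libraries, which may be technical.

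NLRP proteins are NOD-like receptors, typically with a pyrin domain, an ATP-binding NACHT domain and leucine-rich repeats. Some members of the family sense infection or damage in immune cells and assemble the inflammasome, a complex with the adaptor ASC and caspase-1 that releases interleukin-1β. Another set, often called the reproductive NLRPs, has expanded by gene duplication in rodents and is transcribed mainly in the growing oocyte, where the messages and proteins are stored for the early embryo. Nlrp14 is a maternal-effect gene, that is, a gene whose product in the egg is needed by the embryo, and Nlrp5 and Nlrp4f, relatives that are not among the 8, belong to the subcortical maternal complex beneath the egg membrane.

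The 8 genes lie on chromosome 7 in the mm10 (GRCm38) assembly, per the GENCODE M21 annotation. Nlrp4c spans chr7:6045161-6105150, Nlrp4b chr7:10687789-10730168, Nlrp9b chr7:19991465-20073306 and Nlrp4e chr7:23301192-23362277. Nlrp9c (chr7:26322473-26403700, minus strand), Nlrp4a (chr7:26435113-26476142) and Nlrp9a (chr7:26535023-26575615) follow each other, with 31.4 kb and 58.9 kb between them and no other coding gene of the count table in the gaps. Nlrp14 stands apart at chr7:107166990-107198102. All are on the plus strand except Nlrp9c. Small genes annotated inside 3 of them (Gm45379 in Nlrp4b, Krt8-ps in Nlrp4e, n-R5s152 and Gm18877 in Nlrp9b) could share reads with them. All but n-R5s152 lie on the same strand as the gene around them, and how the counting treated overlaps and strand is not given in the sources used here.

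The family's shared core is visible in the coding bases around the Walker A motif, the phosphate-binding loop of the NACHT domain. The motif occurred once in frame in each of the 8 coding sequences, always inside a single exon. It began at codon 87 in Nlrp14 and between codons 149 and 154 in the others. The 60 bases below, from the GENCODE M21 transcripts, carry the 8 motif codons in capitals, and they are shown because they display how closely some of these genes copy each other.
Nlrp4a: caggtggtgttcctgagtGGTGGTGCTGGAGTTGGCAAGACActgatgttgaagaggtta
Nlrp4b: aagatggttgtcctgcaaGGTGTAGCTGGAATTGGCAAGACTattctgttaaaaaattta
Nlrp4c: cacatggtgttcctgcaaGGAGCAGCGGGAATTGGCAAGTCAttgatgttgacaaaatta
Nlrp4e: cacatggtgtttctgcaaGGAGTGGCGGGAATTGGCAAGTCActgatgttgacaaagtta
Nlrp9a: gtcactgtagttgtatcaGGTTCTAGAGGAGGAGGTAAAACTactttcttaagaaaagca
Nlrp9b: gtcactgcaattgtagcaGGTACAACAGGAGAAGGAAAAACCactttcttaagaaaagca
Nlrp9c: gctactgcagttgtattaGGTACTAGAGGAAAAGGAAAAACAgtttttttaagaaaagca
Nlrp14: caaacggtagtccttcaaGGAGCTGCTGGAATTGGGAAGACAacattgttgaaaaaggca
In this window Nlrp4c and Nlrp4e differed at 5 of 60 bases, and Nlrp9a and Nlrp9b at 9. Nlrp4a differed from Nlrp9b at 37 bases, which is the widest gap among the 28 pairs, and Nlrp14 was nearest to Nlrp4b and Nlrp4c, each at 17 differences. The windows lie at chr7:26449411-26449470 (Nlrp4a), chr7:10714298-10714357 (Nlrp4b), chr7:6065543-6065602 (Nlrp4c), chr7:23320531-23320590 (Nlrp4e), chr7:26557385-26557444 (Nlrp9a), chr7:20023266-20023325 (Nlrp9b), chr7:26385667-26385726 (Nlrp9c, minus strand) and chr7:107181838-107181897 (Nlrp14).

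Over the whole coding sequence, gaps left out, Nlrp4c and Nlrp4e were 93.9% identical and shared an unbroken run of 120 bases. Nlrp9a and Nlrp9c were 87.7% identical, and Nlrp9a and Nlrp9b, at 84.2%, shared a run of 129 bases. Nlrp4a was 86.2% identical to both Nlrp4c and Nlrp4e, whereas Nlrp4b was the divergent Nlrp4 member, with at most 79.4% identity to another. Nlrp14 reached at most 65.9% with any of the other 7.

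**Figure D1:**
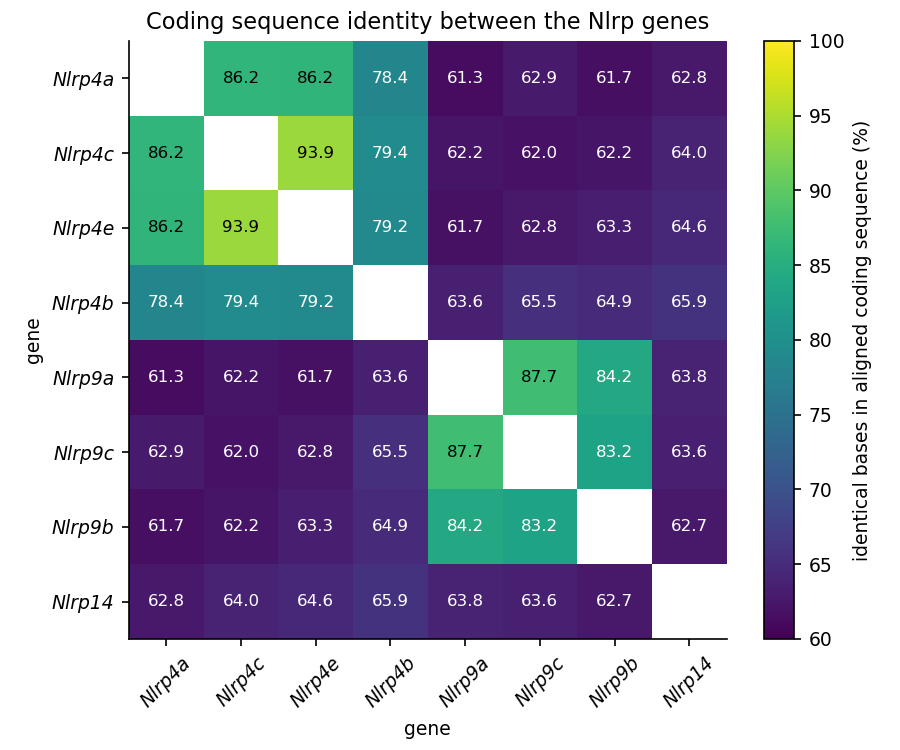
Percent of identical bases in pairwise alignments of the coding sequences of the 8 genes (both axes), gaps left out. The Nlrp4 and the Nlrp9 genes form blocks of high identity, with the highest value, 93.9%, between Nlrp4c and Nlrp4e, and Nlrp14 stays at or below 65.9% with every other gene.

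This likeness bears on how surely a read can be given to a gene. The reads were pairs of 150 bp per the labels. No 150-base stretch of the Nlrp4a, Nlrp4b, Nlrp4c, Nlrp9a, Nlrp9b, Nlrp9c or Nlrp14 transcript recurred unchanged in a transcript of another gene, and for Nlrp4e 3.40% of the stretches did. At 75 bases the share was 20.2% for Nlrp4e, 3.42% for Nlrp4c, 3.09% for Nlrp9b, 2.21% for Nlrp9a, 1.56% for Nlrp9c and 0.358% for Nlrp4a, and it was 0 for Nlrp4b and Nlrp14. Most of the Nlrp4e overlap was with 5 unprocessed pseudogenes, Gm4541, Gm8486, Gm8728, Gm16443 and Gm8685, each 98.8% to 98.9% identical to Nlrp4e over the aligned part. Of these the count table lists Gm4541, with 4 counts in the 6 libraries together. The handling of reads that map to several places is not given in the sources used here, so the split of reads is uncertain for Nlrp4e, and to a lesser degree for Nlrp4c and the Nlrp9 genes. Nlrp14 and Nlrp4b share no 75-base stretch with another gene's transcript.

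The libraries held 252267 to 300917 gene counts each, and 292 to 753 counts of ERCC spike-in RNA. The oocyte label was checked against markers. All 10 oocyte markers had counts, among them Gdf9, an oocyte-secreted growth factor, and Zp3, an egg-coat protein. The summed marker count, not scaled for library size, was 6357 to 6751 in the water oocytes and 5191 to 6353 in the phthalate oocytes. Scaled by library totals, the groups overlapped for each of the 10 markers. Of 12 cumulus and granulosa markers, 7 were at 0 in every library, among them Foxl2 and Amhr2, and the sum was 0 to 5 counts in a water oocyte and 1 to 3 in a phthalate oocyte. Of 7 leukocyte markers, Ptprc, Adgre1 and Lyz2 were at 0 in every library, and the sum was at most 4 counts.

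Nlrp14 was the most abundant of the 8. Its counts in oocytes 1, 2 and 3 were 545, 844 and 688 after water and 773, 735 and 726 after phthalate. By summed counts it was number 33 of the 12804 genes with a count, and per kb of coding length number 191 of 11861. It alone held 58.7% of the counts of the 8 genes, from 54.9% in water oocyte 1 to 62.7% in phthalate oocyte 1.

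The Nlrp9 genes came next as a group. Nlrp9b, which is also known as a sensor of viral RNA in the intestinal epithelium, had 143, 198 and 173 counts after water and 166, 120 and 151 after phthalate. Nlrp9a had 72, 89 and 78 counts after water and 97, 99 and 84 after phthalate, and Nlrp9c had 73, 75 and 96 against 86, 106 and 102. Nlrp9b exceeded both of the others in every oocyte, while the 2 genes that flank Nlrp4a were level with each other: the ratio of Nlrp9a to Nlrp9c per kb lay between 0.813 and 1.19 over the 6 oocytes.

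Among the Nlrp4 genes, Nlrp4a led with 81, 122 and 106 counts after water and 68, 92 and 120 after phthalate. Nlrp4b had 48, 44 and 21 counts after water and 24, 50 and 36 after phthalate, and Nlrp4e had 29, 46 and 35 against 18, 27 and 40. Phthalate oocyte 1 was the lowest of the 6 for Nlrp4a and for Nlrp4e, and water oocyte 3 was the lowest for Nlrp4b. Nlrp4c was close to silent, with 2, 2 and 3 counts after water and 0, 4 and 2 after phthalate, a water sum of 7 and a phthalate sum of 6 beside 110 and 85 for Nlrp4e, its nearest copy. Of the 47 values above 0 among the 8 genes, 63.8% were even numbers, and whether the mates of a read pair were counted separately is not given in the sources used here, so intervals are also given below for counts halved to pairs.

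Levels of different genes were compared as CPM (counts per 1000000 gene counts of a library) per kb of coding length, as mean ± SD over all 6 oocytes. On this scale Nlrp14 stood at 864 ± 119, Nlrp9b at 189 ± 31.8, Nlrp4a at 119 ± 22.3, Nlrp9c at 107 ± 16.5 and Nlrp9a at 103 ± 14.5 (SD, n = 6 for each). Nlrp4b stood at 51.1 ± 15.9, Nlrp4e at 39.3 ± 10.7 and Nlrp4c at 2.57 ± 1.54. Some steps in this order were wider than the spread, since the ranges over oocytes did not overlap: Nlrp14 above Nlrp9b (4.57-fold), Nlrp9a above Nlrp4b (2.02-fold) and Nlrp4e above Nlrp4c (15.3-fold). Nlrp4a, Nlrp9c and Nlrp9a did not differ beyond their spread, nor did Nlrp4b and Nlrp4e. Nlrp9b and Nlrp4a had overlapping ranges, although Nlrp9b was higher in 6 of 6 oocytes. With the longest transcript in place of the coding length, Nlrp4a fell below Nlrp9c and Nlrp9a, and the other places stayed as they were.

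**Figure D2:**
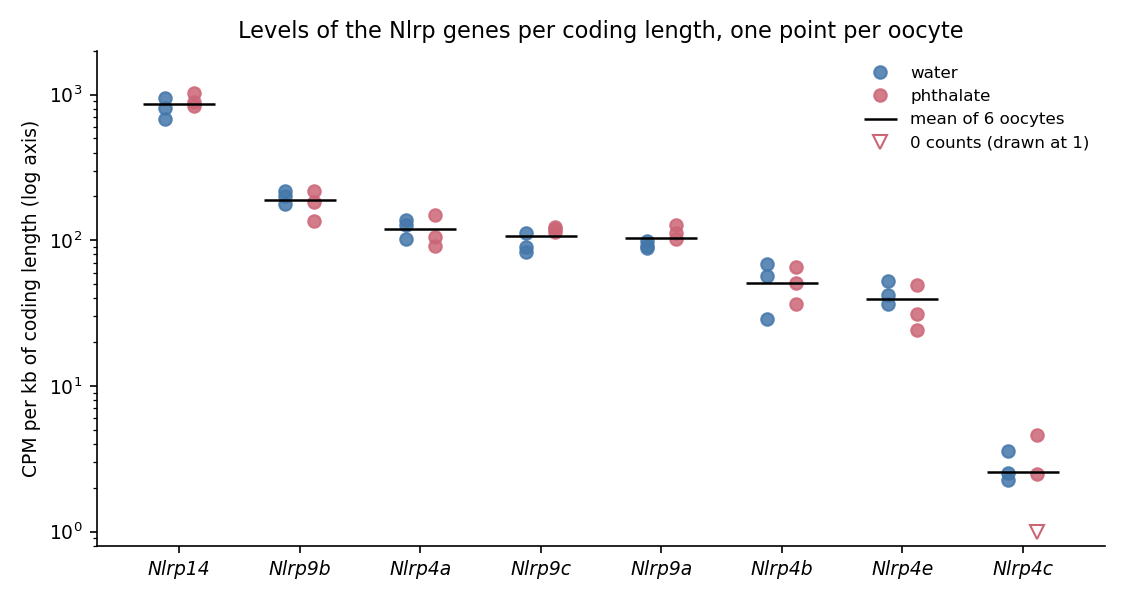
CPM per kb of coding length on a log axis for the 8 genes (horizontal axis), with 1 point per oocyte, blue for water and red for phthalate, and a line at the mean of the 6 oocytes. Nlrp14 lies above all others at a mean of 864, 6 genes lie between 39.3 and 189, and Nlrp4c lies at 2.57, with an open triangle drawn at 1 for the oocyte without a count.

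The promoters of these copies were compared with each other. The RefSeq promoter table (GRCm38.p6) had windows for 7 of the 8 genes, Nlrp14 not among them, and the 250 bases before the start site were compared. Nlrp4c was 79.7% identical over 212 aligned bases to the window of the first of the 2 listed Nlrp4b starts (81% over 184 for the second) and 76.1% identical over 213 to the window of the second of the 2 listed Nlrp4a starts, which lies in an intron of the transcript from the first. Against the first Nlrp4a start, the one at the GENCODE gene start, the identity of Nlrp4c was 60.6%. Nlrp4b stood at 51.1 CPM per kb and Nlrp4a at 119, against 2.57 for Nlrp4c. The promoters of Nlrp9a and Nlrp9c, the pair with level counts, were 96.1% identical over 203 aligned bases, with an unbroken run of 106. Other copies had windows far less alike. The identity was 60.9% for Nlrp4c and Nlrp4e, the pair nearest in coding sequence, 60.6% for Nlrp9a and Nlrp9b and 63.8% for Nlrp9b and Nlrp9c. Windows of an Nlrp4 gene against an Nlrp9 gene gave 57.3% to 67.1%, so these values show no likeness beyond that between the families. The Nlrp9b window precedes a RefSeq start inside the GENCODE gene and may not match the others in position. The 5 windows of the more alike promoters are printed. Capitals mark the letters CCAAT on either strand (read ATTGG on the other), a motif picked after the sequences were seen.
Nlrp4a: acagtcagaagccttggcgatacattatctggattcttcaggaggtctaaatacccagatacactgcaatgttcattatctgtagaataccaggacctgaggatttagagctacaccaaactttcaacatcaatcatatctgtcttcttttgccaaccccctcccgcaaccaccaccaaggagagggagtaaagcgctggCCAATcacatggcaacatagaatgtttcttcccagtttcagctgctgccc
Nlrp4b: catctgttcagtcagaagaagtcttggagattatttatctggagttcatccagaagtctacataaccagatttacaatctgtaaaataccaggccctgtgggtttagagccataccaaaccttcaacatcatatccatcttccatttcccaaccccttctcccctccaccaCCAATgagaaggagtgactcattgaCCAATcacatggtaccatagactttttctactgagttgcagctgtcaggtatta
Nlrp4c: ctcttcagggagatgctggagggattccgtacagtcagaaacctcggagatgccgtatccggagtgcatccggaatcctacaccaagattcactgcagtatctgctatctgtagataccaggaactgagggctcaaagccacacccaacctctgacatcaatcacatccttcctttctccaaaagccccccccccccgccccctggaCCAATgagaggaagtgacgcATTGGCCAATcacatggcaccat
Nlrp9a: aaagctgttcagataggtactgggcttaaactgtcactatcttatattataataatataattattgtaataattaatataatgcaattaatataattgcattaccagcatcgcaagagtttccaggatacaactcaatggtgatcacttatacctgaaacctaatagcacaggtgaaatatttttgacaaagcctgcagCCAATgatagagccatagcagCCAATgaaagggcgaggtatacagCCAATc
Nlrp9c: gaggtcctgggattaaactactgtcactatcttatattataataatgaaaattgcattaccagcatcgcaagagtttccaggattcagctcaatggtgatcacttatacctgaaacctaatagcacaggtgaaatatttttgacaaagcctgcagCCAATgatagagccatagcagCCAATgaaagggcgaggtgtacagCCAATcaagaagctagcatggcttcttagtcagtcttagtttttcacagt
They lie at chr7:26435364-26435613 (Nlrp4a), chr7:10687543-10687792 (Nlrp4b), chr7:6044911-6045160 (Nlrp4c), chr7:26534773-26535022 (Nlrp9a) and, on the minus strand, chr7:26403701-26403950 (Nlrp9c). Nlrp4c, Nlrp9a and Nlrp9c held 3 matches each, Nlrp4b 2 and Nlrp4a 1, and the window of the first Nlrp4a start held none. Of all 32851 promoter windows of this length in the table, 33.8% held at least 1 match and 2.79% at least 3. Nlrp4e held 1 match, and the Nlrp9b window, whose RefSeq start lies inside the GENCODE gene, held none. The E-box letters CANNTG were also searched and are not marked: Nlrp4e held none, Nlrp4c, Nlrp9a, Nlrp9b and Nlrp9c held 1 each, the printed Nlrp4a window 2 and the printed Nlrp4b window 3 (2 in that of the second start), beside 66.2% of all windows with at least 1.

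Between the groups, the 8 genes together took 3613 counts in the water group, 0.423% of its counts (95% exact binomial interval 0.409 to 0.437), and 3726 in the phthalate group, 0.453% (0.439 to 0.468). These intervals, like all others here, cover counting error only. By oocyte the share was 0.369%, 0.472% and 0.423% after water and 0.488%, 0.418% and 0.459% after phthalate. The groups overlapped, and water oocyte 1 was the lowest. The log2 ratio of the summed counts, phthalate over water, with library totals scaled by TMM (trimmed mean of M-values), was 0.12 (95% counting interval 0.050 to 0.18). It was 0.022 without water oocyte 1 and 0.23 without water oocyte 2, so its size rested on which oocytes were summed. Without Nlrp14, the other 7 genes had a ratio of 0.030 (-0.074 to 0.13).

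Of the 8 genes, 7 passed the filter on low counts, Nlrp4c being the exception. None of the 7 differed by 1.5-fold or more between the groups, a size that 15.1% of the 4644 genes tested reached (6.96% higher and 8.14% lower in phthalate). Among the 2784 genes that averaged 20 counts or more, as the 7 do, the share was 8.12%. The ratios of the 7 ran from -0.30 to 0.34 with a median of 0.033, beside a median of 0.0089 and central 90% limits of -0.72 and 0.66 over all genes tested, or -0.54 and 0.54 over the 2784. The median of the 7 had no stable sign: with 1 oocyte left out it ran from -0.042 (water oocyte 3) to 0.135 (water oocyte 2), and it was 0.149 with the ERCC divisor.

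Nlrp9a and Nlrp9c were the 2 genes with the highest ratios. Nlrp9a had TMM-scaled CPM of 259, 299 and 275 after water and 375, 328 and 327 after phthalate, and its log2 ratio was 0.30 (0.046 to 0.56). The lowest phthalate oocyte lay above the highest water oocyte, and Nlrp9a was the 1 gene of the 7 whose groups did not overlap, as was the case for 10.1% of all genes tested on the same scale (5.15% with phthalate higher). Nlrp9c had TMM-scaled CPM of 263, 252 and 339 after water and 332, 351 and 397 after phthalate, with a log2 ratio of 0.34 (0.091 to 0.59). Water oocyte 3 lay above phthalate oocyte 1 on this scale, whereas by plain library totals (338 against 341 CPM) the groups of Nlrp9c did not overlap either, making 2 of the 7, beside 10% of all genes tested on that scale. With the ERCC counts as divisor no gene of the 7 separated the groups, beside 2.58% of all genes tested. With counts halved to read pairs the intervals of Nlrp9a (-0.068 to 0.66) and Nlrp9c (-0.015 to 0.70) reached below 0.

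Nlrp9b went the other way, with a log2 ratio of -0.16 (-0.35 to 0.025). Phthalate oocyte 2, at 398 TMM-scaled CPM, was the lowest of the 6, and water oocyte 1 (515) lay below phthalate oocytes 1 (642) and 3 (588), so the groups overlapped. It became 0.046 when phthalate oocyte 2 was left out. Set against Nlrp9a per kb, Nlrp9b gives a ratio that does not depend on the scaling of the libraries. It was 1.99, 2.23 and 2.22 after water and 1.71, 1.21 and 1.80 after phthalate, so each phthalate oocyte lay below each water oocyte. This pair was singled out after its values were seen, from 21 pairs of which 2 did not overlap, the other being Nlrp9b to Nlrp14 (counts of 0.262, 0.235 and 0.251 per Nlrp14 count after water and 0.215, 0.163 and 0.208 after phthalate). Over all pairs of tested genes with a count in every library, 10.3% of the ratios did not overlap, so 2 of 21 is near the background.

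Nlrp14 had 2022, 2805 and 2424 CPM after water (mean 2417 ± 391, SD, n = 3) and 3064, 2491 and 2641 after phthalate (2732 ± 297, SD, n = 3). Water oocyte 2 lay above 2 of the 3 phthalate oocytes, so the groups overlapped. Its log2 ratio of 0.18 had the narrowest interval of the 8 (0.090 to 0.26), and leaving out water oocyte 1 lowered the ratio to 0.058. Nlrp14 took 57.5% (exact binomial interval 55.9 to 59.1) of the 8 genes' counts after water and 59.96% (58.4 to 61.5) after phthalate.

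The Nlrp4 genes held log2 ratios near or below 0. Nlrp4a was at -0.070 (-0.31 to 0.17) and Nlrp4b at 0.033 (-0.36 to 0.43), and both changed sign when certain single oocytes were left out. Nlrp4e, with 108, 153 and 123 CPM after water and 71.4, 91.5 and 146 after phthalate, was at -0.30 (-0.73 to 0.12). By these CPM phthalate oocyte 3 lay among the water values, and on the TMM scale just above them (155.6 against at most 154.5). The other phthalate oocytes lay below the water values on both scales. The ratio of Nlrp4e ran from -0.67, past 1.5-fold, without phthalate oocyte 3 to -0.091 without phthalate oocyte 1. Nlrp4c, with 7 counts after water (95% exact Poisson interval 2.8 to 14.4) and 6 after phthalate (2.2 to 13.1), had a log2 ratio of -0.15 with an interval from -1.999 to 1.65, so at this depth no difference of that size could be detected. With single oocytes left out the ratio ran from -1.06 to 0.40.

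**Figure D3:**
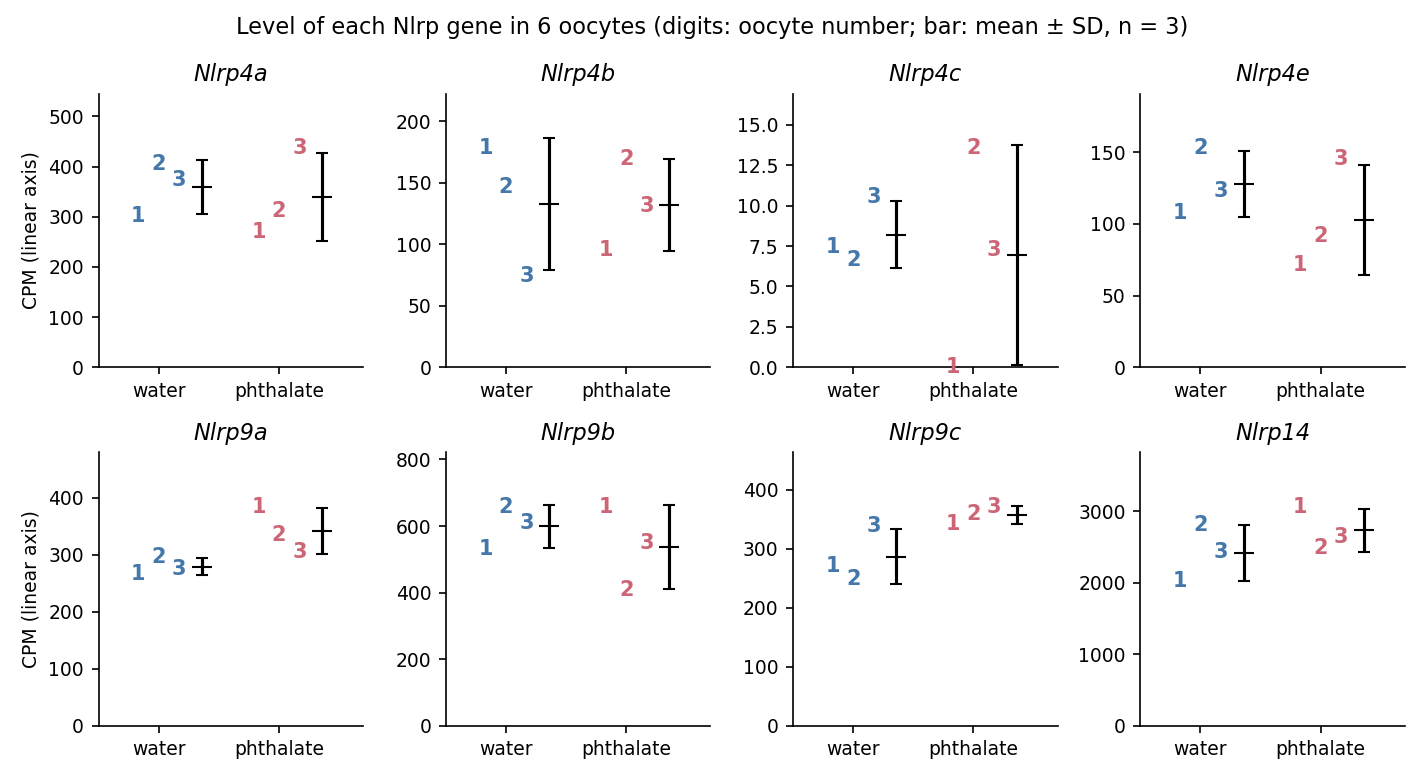
CPM (linear axes from 0, 1 panel per gene) in the 3 water oocytes (blue digits, the oocyte number) and the 3 phthalate oocytes (red digits), with the mean ± SD of each group in black. The groups overlap in 6 panels, and in those of Nlrp9a and Nlrp9c every phthalate oocyte lies above every water oocyte, which for Nlrp9c did not hold on the TMM scale.

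**Figure D4:**
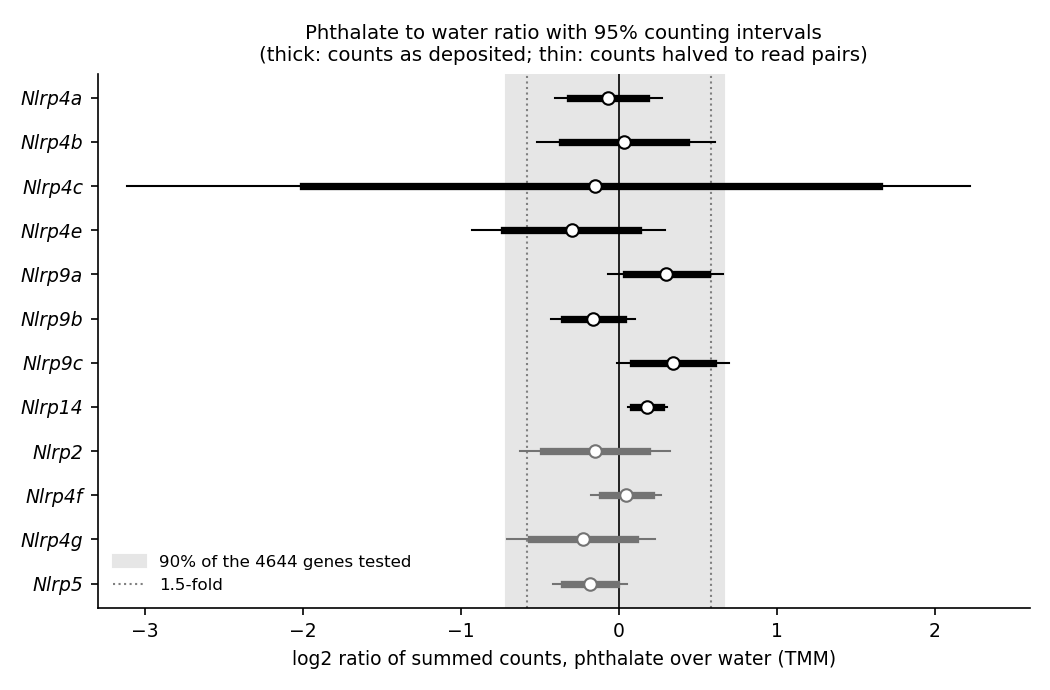
Log2 ratio of summed counts, phthalate over water, for the 8 genes (black) and for 4 other NLR genes with counts (grey), with 95% counting intervals from the counts (thick) and from counts halved to read pairs (thin). All 12 ratios lie inside the dotted 1.5-fold lines and inside the grey band that holds 90% of the 4644 genes tested, and the interval of Nlrp4c spans from -1.999 to 1.65.

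The coefficient of variation of the CPM over the 6 oocytes, both groups together, was lowest for Nlrp14 at 13.8%, where counting error alone gives 3.73% from the counts and 5.28% from read pairs. Nlrp9a had 14.0% (10.8% and 15.2% from counting), Nlrp9c 15.4% (10.6% and 14.9%) and Nlrp4b 31.1% (16.4% and 23.2%). Nlrp4c, at 59.9% (67.9% and 96.1%), had too few counts for its spread to be read. These values hold any difference between the groups as well, and whether the genes differ in their spread was not tested.

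The rest of the NLR family was measured with a list of 22 genes, 21 of them in the table. Counts rested on few of them. Nlrp4f, of the subcortical maternal complex, had 214, 266 and 209 counts after water and 234, 238 and 205 after phthalate, and Nlrp5 had 202, 249 and 218 against 182, 221 and 158. Nlrp2 had 66, 49 and 54 counts against 42, 37 and 66, and Nlrp4g, which GENCODE M21 lists as a transcribed pseudogene, had 31, 89 and 55 against 31, 54 and 57. These 4 passed the filter on low counts, and none reached 1.5-fold (log2 ratios 0.047, -0.18, -0.15 and -0.23 in the order given), beside 15.1% of all genes tested. By plain library totals the groups of Nlrp5 did not overlap (749.6, 827.5 and 768.2 CPM after water, 721.5, 749.1 and 574.7 after phthalate), as for 10% of all genes tested. On the TMM scale they overlapped. Nlrc4 and Naip1, which work together in the sensing of bacterial proteins, averaged 5.5 and 5.33 counts per library. The genes at 0 in every library were Nlrp1a, Nlrp1b, Nlrp6, Nlrx1, Nlrc5, Ciita and Naip5, and Nlrp3, the best known inflammasome sensor, had 2 counts, both in phthalate oocyte 2.

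The partners that inflammasome sensors use elsewhere were almost without counts. Of 11 genes, Pycard (the adaptor ASC), Casp1 (caspase-1), Casp4, Gsdmd (the pore former gasdermin D), Il1b (interleukin-1β) and Mefv were at 0 in all 6 libraries. Taking 3 counts as the limit that a count of 0 allows, at 1676410 counts in all, their level could be up to 1.79 CPM. Il18, Aim2, Nek7 and Dhx9, the last a helicase that presents viral RNA to NLRP9B in the intestine, had 2 to 21 summed counts, and Txnip, a redox regulator that also binds NLRP3, was the exception with 132 to 229 counts per oocyte and a log2 ratio of 0.14 (-0.030 to 0.32).

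Transcripts of 8 proteins reported to work with oocyte NLRPs were also measured. Those of Tle6, Ooep, Padi6, Khdc3 and Zbed3, all tied to the subcortical maternal complex, had mean counts per library of 768, 973, 1335, 323 and 4612. Uhrf1, a regulator of DNA methylation and a reported partner of NLRP14, had 199, 223 and 177 counts after water and 188, 177 and 183 after phthalate, with a log2 ratio of -0.056 (-0.23 to 0.11). Slc8b1, the mitochondrial calcium exchanger that NLRP14 is reported to stabilise, was at 0 in every library. None of the 7 genes of this list that were tested reached 1.5-fold. Khdc3 had the lowest ratio, -0.34 (-0.47 to -0.20), and Tle6 was at 0.33 (0.25 to 0.42), but for both the CPM of the groups overlapped. The highest ratio was that of Ywhae, a 14-3-3 protein, at 0.57 (0.28 to 0.86), from 47, 60 and 62 counts after water and 88, 84 and 66 after phthalate. In this list only Ywhae had groups that did not overlap on the TMM scale, as was the case for 10.1% of all genes tested.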

How the data were processed

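Smart-seq3 libraries of 6 single oocytes were compared. The deposited table gives raw counts, as whole numbers, of 25239 genes named by symbol and of 92 spike-in RNAs (ERCC). The submitters' processing notes name cutadapt, Trimmomatic, HISAT2, DESeq2 and the build mm10, without roles or versions; the counting tool, annotation, strand setting and handling of multi-mapped reads and molecular identifiers are not given in the sources used here.

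Group counts were summed and divided by library totals without ERCC, scaled by TMM (edgeR 4.0.16, R 4.3.3). Ratios were computed over 4644 genes passing filterByExpr (minimum count 10, minimum total count 15). Intervals are exact (Clopper-Pearson for ratios and shares, Poisson for sums). They cover counting error only and treat every count as independent, so PCR copies and doubly counted mates would make them too narrow. A sum of 0 was set to 3 counts in ratios, and the code was tested on simulated data. Coding lengths and sequences came from GENCODE M21 (biopython alignments), promoters from RefSeq.

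Named genes are the 8 members, list genes averaging 5 counts or more (others singled out after their values were seen, such as Nlrp3 and the genes at 0) and the 3 genes whose profile was most like the members' sum. The members and lists were chosen with earlier results of these data known. Alternatives were other scalings (library totals, DESeq2 1.42.0 size factors, ERCC), no filter, Rn45s left out, oocytes left out and other lengths.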

Additional observations from a re-analysis of the deposited data

How the results depend on the processing

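The groups did not overlap for 1 gene under the design as reported, for 2 with plain library totals and for 0 with the ERCC divisor. Leaving out 1 oocyte gave 1 to 2 such genes, 2 for each oocyte except water oocyte 1, beside 18.3% to 24.2% of all genes tested, since fewer oocytes overlap less by construction. Of the 7 genes that passed the filter, the number past 1.5-fold was 0, and ranged from 0 to 1 with 1 oocyte left out, the 1 being Nlrp4e without phthalate oocyte 3, beside 18.8% to 22.1% of all genes tested. Nlrp4c, outside the 7, was at -1.06 without phthalate oocyte 2. With the longest transcript as length, 2 of the 28 gene pairs changed their order. The summed ratio of the 8 genes ranged from 0.0217 to 0.227 with 1 oocyte left out and was 0.232 with the ERCC divisor; the difference in share, 0.0302 percentage points, ranged from 0.00506 (without water oocyte 1) to 0.0568 (without water oocyte 2). The other scalings and the filter do not enter the share. Of 104 ratios of single genes under the alternatives, 103 moved by less than the spread between oocytes (1 SD). This was largely fixed in advance, so it says little about stability. Leaving 1 of 3 oocytes out can hardly shift a group mean by 1 SD, and each other scaling moved all genes by the same amount. Another sign arose in 9 of the 104 ratios, for Nlrp4a, Nlrp4b, Nlrp4c and Nlrp9b.

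The replicate numbers showed no clear pairing of the libraries. The correlations of same-numbered deviations over 2784 genes were 0.064, 0.013 and 0.043, beside -0.084 to 0.046 for libraries of different numbers. Whether same-numbered oocytes shared an animal or a session cannot be told from these values. With the replicate block the summed ratio was 0.135 and the median of the 7 genes 0.0625, and 0 genes passed 1.5-fold. The block gives no value for the count of genes whose groups do not overlap. With 252267 to 300917 counts per library, counting intervals of Nlrp4a, Nlrp4b, Nlrp4c, Nlrp4e and Nlrp9b span 0, the widest being that of Nlrp4c, and so do those of Nlrp9a and Nlrp9c for read pairs.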

Other observations

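The genes next to the 8 on chromosome 7 were examined. Each of the 8 has a nearest coding gene of the count table on either side, 16 places in all, of which 5 are taken by NLR genes, among them Nlrp5, 23.6 kb from Nlrp4e. Of the other 11 places, 8 hold a gene at 0 counts in every library, 6 of these a vomeronasal or olfactory receptor gene, while 42.0% of all 20467 coding genes of the table are at 0. Ceacam20, 0.4 kb from Nlrp9b, averaged 17.3 counts per library, Zfp787 next to Nlrp4c 1.83 and Rbmxl2 next to Nlrp14 1.67.

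Among the 446 other genes that averaged 100 counts or more, the CPM profile over the 6 libraries most like that of the 8 genes summed was that of Hsp90aa1, a cytosolic chaperone, at a Pearson correlation of 0.96. Cnot6l, a deadenylase subunit, and Rdx, which links actin to the membrane, followed at 0.90 and 0.89. The 6 points share their libraries and totals, and the 3 genes are the highest of 446, so the values are a description.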
